A study of Mus musculus with 19 samples.

Results

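The genes described here are *Spp1*, which encodes the secreted protein osteopontin, and 7 genes for receptors that bind it: *Cd44*, *Itgav*, *Itgb1*, *Itgb3*, *Itgb5*, *Itga5* and *Itga9*. They were taken by gene symbol from the deposited table of retinal microglia, where all 8 symbols had a row, and make up 8 of its 27299 genes. All 8 had reads in every sample. The levels of the ligand were set against those of its receptors in the same cells.

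The 6 CNV d3 samples were taken on day 3 after laser treatment with 6 burns per eye, which breaks Bruch's membrane and starts choroidal neovascularization (CNV), the growth of vessels from the choroid under the retina. The 6 control samples came from unlasered eyes dissected in the same way, with the peripheral retina removed. In both groups the labels give C57BL/6J mice of 8 weeks and cells sorted as CD45+ CD11b+ CX3CR1+ Ly6C- Ly6G-, while the methods of the study give Cx3cr1 GFP/+ mice, which carry a GFP reporter in 1 copy of the *Cx3cr1* gene, and cells low for CD45. Nothing in the labels says that the samples came from separate mice, so p-values measure the spread between these samples, which may be technical. The submitters' list gives each control sample, and among the lasered samples replicate 4, as 2 parts and every other sample as 1. The methods of the study instead describe 2 BAM files per sample, from separate flow cells, for all samples. With replicate 4 as the only lasered sample in 2 parts, an effect of the parts and of the laser cannot be told apart reliably.

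Osteopontin is an extracellular matrix protein and cytokine that is made by bone cells, by activated macrophages and by reactive microglia. Integrins are heterodimers of an alpha and a beta subunit, and those with the subunits αv or α5 recognise the tripeptide arginine-glycine-aspartate (RGD) of osteopontin. Integrin α9β1 binds a neighbouring stretch that is exposed after cleavage by thrombin, and the hyaluronan receptor CD44 binds osteopontin through other parts of the protein.

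The RGD codons are shown because they are the site through which most of the receptors below contact the ligand. In Gencode they lie in 6 of 7 coding transcripts of *Spp1*, in exon 6 of the transcript ENSMUST00000031243, which has 294 codons, where they are codons 144 to 146. The stretch of 60 bases at chr5:104439466-104439525 (GRCm38, plus strand) has the RGD codons in capitals, and the codons that follow them encode the stretch known to bind integrin α9β1.
Spp1 coding sequence: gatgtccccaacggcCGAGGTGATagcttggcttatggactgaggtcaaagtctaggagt

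The sequences before the start sites are shown for *Spp1* and for *Cd44* and *Itga5*, 2 receptor genes whose levels were higher in CNV d3. RefSeq (GRCm38.p6) gave a window for 7 of the 8 genes, *Itgb3* having no entry. The window of *Itga9* lies at an internal start of the gene and was not used. *Spp1* had 2 windows, of which the first is shown. The second (chr5:104435942-104436241, plus strand, 36.7% G and C) held no match to the 5 motifs below. Each window held 250 bases before and 50 bases after the start, and 5 motifs were searched on both strands. These were ACCACA (RUNX factors), found in 16.8% of all 32851 windows, GAGGAAG (PU.1) in 13.6%, TGANTCA (AP-1) in 7.81%, CATGTG (MITF) in 14.2% and GGGCGG (SP1) in 35.7%. Matches in the 250 bases are in capitals, and none of them overlapped another. The *Spp1* sequence (chr5:104434861-104435110, plus strand) held ACCACA from base -128 and GAGGAAG from base -113, that of *Cd44* (chr2:102901666-102901915, minus strand) held GAGGAAG on the opposite strand from base -221, and that of *Itga5* (chr15:103366792-103367041, minus strand) held GGGCGG on the opposite strand from bases -149 and -6.
Spp1 promoter: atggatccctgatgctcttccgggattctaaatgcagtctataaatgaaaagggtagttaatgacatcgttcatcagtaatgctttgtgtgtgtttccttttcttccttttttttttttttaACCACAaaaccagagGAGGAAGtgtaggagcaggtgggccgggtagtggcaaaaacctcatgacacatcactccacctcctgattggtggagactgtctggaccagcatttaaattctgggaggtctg
Cd44 promoter: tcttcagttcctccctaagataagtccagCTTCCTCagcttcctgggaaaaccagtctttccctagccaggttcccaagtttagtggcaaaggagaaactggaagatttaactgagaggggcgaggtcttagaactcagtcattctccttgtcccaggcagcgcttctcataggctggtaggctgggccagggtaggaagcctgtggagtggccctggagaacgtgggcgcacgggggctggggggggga
Itga5 promoter: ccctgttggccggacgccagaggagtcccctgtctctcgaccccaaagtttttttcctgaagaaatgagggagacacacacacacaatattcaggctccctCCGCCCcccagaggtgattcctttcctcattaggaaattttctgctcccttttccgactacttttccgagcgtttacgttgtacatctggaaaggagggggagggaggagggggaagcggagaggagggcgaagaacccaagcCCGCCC
The first window of *Spp1* was 45.3% G and C with 3 CpG dinucleotides. Those of *Cd44*, *Itga5*, *Itgb5*, *Itgav* and *Itgb1* were between 58.0% and 67.3% G and C with 6, 13, 20, 24 and 27 CpG. A match is a description of the letters only, and binding of a factor was not measured.

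Reads on genes numbered between 10963178 and 22335233 per control sample and between 23532260 and 29523018 per CNV d3 sample, so every CNV d3 sample was sequenced more deeply. The deposited values, called normalized counts below, are reads divided by the size factor of the sample, and 1 read was worth between 0.739 and 1.99 of them. All 10 microglia markers had reads in every sample, and their sum was between 1268940 and 1455050 normalized counts in control and between 691843 and 1048500 in CNV d3, with 7 of 10 lower (limma, adjusted p under 0.05). The sum of 8 monocyte markers was between 221 and 1022 in control and between 1219 and 4438 in CNV d3, with 4 of 8 higher and the 2 highest sums in CNV d3 replicates 3 and 6. Among these, *Ly6c2*, a target of the Ly6C gate, had no reads in any control sample and a mean of 12.9 in CNV d3. The 3 platelet markers with a row summed to between 472 and 844 in control and between 143 and 414 in CNV d3, with *Gp9* lower (log2 fold change -1.61) and *Itga2b*, the platelet partner of β3, without reads in any control sample. The sum of 5 photoreceptor markers was between 596 and 5954 in control and between 494 and 11220.5 in CNV d3, which overlap.

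*Spp1* (ENSMUSG00000029304, chr5:104435118-104441050, plus strand) was the only DEG among the 8 genes, a DEG being a gene that limma gave an adjusted p under 0.05 and a log2 fold change beyond 1.5 in either direction. Among all genes, 3.91% were increased DEG and 1.07% decreased DEG. The normalized counts of *Spp1* were 29.8 in the lowest control sample, 139 at the median and 415 in the highest, against 6989.6, 14083 and 31243 in CNV d3. The groups thus lay far apart, and the highest control sample (replicate 3) stayed well below the lowest CNV d3 sample (replicate 6). The log2 fold change was 6.85 ± 0.52 (SE, n = 6 per group), a 115-fold increase with an adjusted p of 4.25e-06 by limma, and its 95% interval ran from 5.74 to 7.96. In bulk samples such as these, a change in the number of cells that express a gene and a change in RNA per cell cannot be told apart.

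*Spp1* was also the most variable of the 8 genes within each group. Its highest sample was 13.9 times its lowest in control and 4.47 times in CNV d3, where the receptor genes spanned between 1.18-fold and 2.67-fold in control and between 1.16-fold and 2.13-fold in CNV d3. The sample order of *Spp1* in CNV d3 (replicates 5, 1, 3, 4, 2 and 6 from high to low) matched that of the summed monocyte markers (3, 6, 5, 2, 4 and 1) at 0 of 6 places, while in control 2 of 6 places matched, replicates 3 and 1 being the highest in both. Without replicates 3 and 6 the log2 fold change of *Spp1* was 7.07. Of the exon bases of *Spp1*, 18.8% also lie in the predicted transcript Gm42793 on the same strand, and default counting gives reads there to neither gene.

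**Figure D1:**
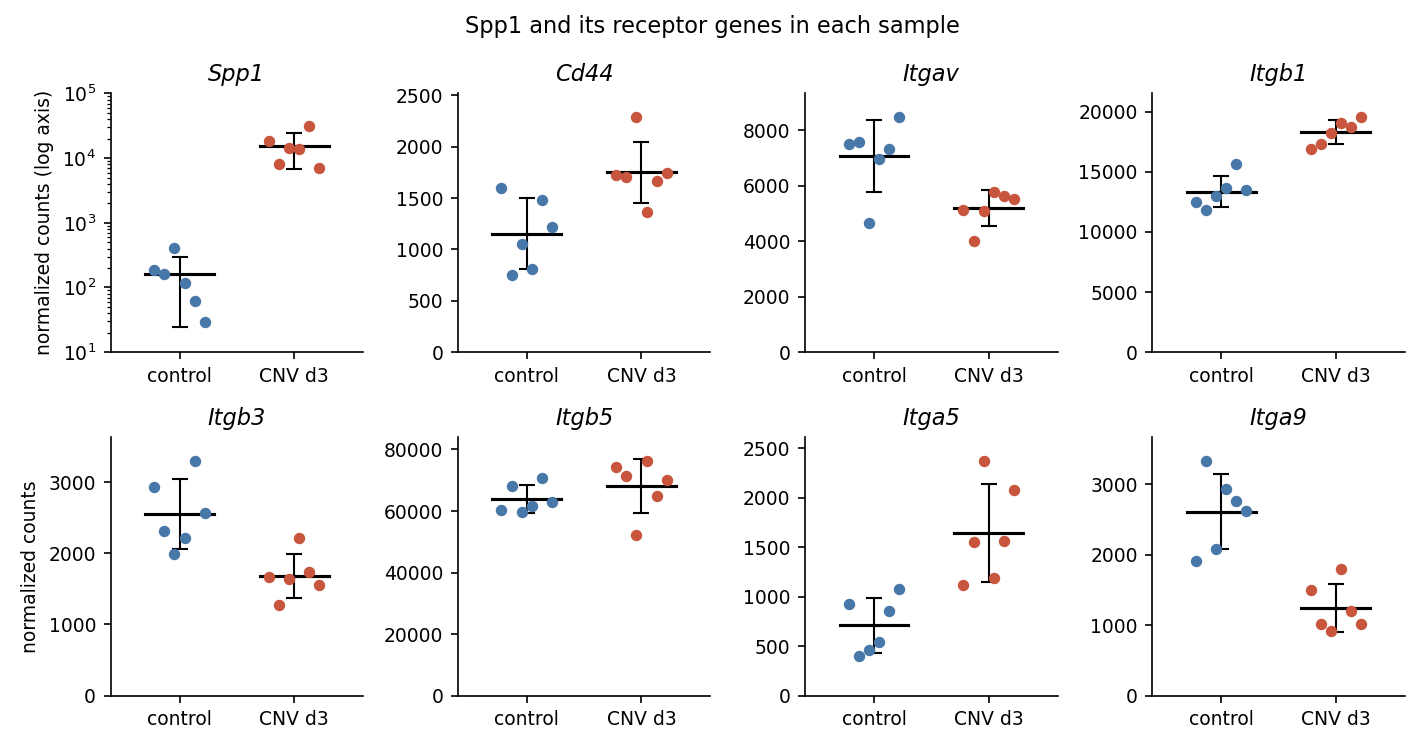
Normalized counts (y axis, a log axis for Spp1 and linear axes from 0 for the others) of the 8 genes in 6 control and 6 CNV d3 samples (x axis); each point is a sample, the line the mean and the bar ± 1 SD. The groups do not overlap for Spp1, Itgb1, Itga5 and Itga9, while they overlap for Cd44, Itgav, Itgb3 and Itgb5.

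Of the 7 receptor genes, 3 rose and 3 fell at an adjusted p under 0.05 by limma, and 1, *Itgb5*, did not pass. Each of these changes was smaller than the threshold for DEG. Among all genes, 8.29% were increased and 4.57% decreased at this adjusted p, and among the 6202 genes with a mean of at least 500 normalized counts over the 12 samples, to which all 8 genes belong, 18.6% and 12.7%. The groups did not overlap for 4 of the 8 genes, 3 of them higher in CNV d3 and 1 lower, against 7.47% of all genes and 19.1% of the genes with a mean of at least 500. A two-sided exact permutation test over the 924 ways to split the samples gave p = 0.00216 for each of these 4. This is the smallest p it can give, and any gene whose groups do not overlap receives it, so it only restates the lack of overlap. Without CNV d3 replicates 3 and 6, the 2 samples with the highest summed monocyte markers, 3 of the 8 genes (*Spp1*, *Itgb1* and *Itga9*) passed an adjusted p of 0.05 by limma instead of 7, as did 6.64% of all genes instead of 12.9%. This alternative was chosen after the data were seen, and it also has fewer samples.

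*Cd44* (ENSMUSG00000005087, chr2:102811141-102901665, minus strand) encodes the hyaluronan receptor CD44, the one receptor here that is no integrin. Its normalized counts were 753 in the lowest control sample, 1135 at the median and 1595 in the highest, against 1367, 1712 and 2289 in CNV d3. Control replicates 1 and 5 lay within the range of CNV d3. Its log2 fold change was 0.64 ± 0.19 (SE, n = 6 per group), with an adjusted p of 0.0364 by limma. The call was lost when any 1 of 9 samples was left out, with an adjusted p of up to 0.110 by limma, and without CNV d3 replicates 3 and 6 it was 0.227 at a log2 fold change of 0.54. Its sample order matched that of the summed monocyte markers at 3 of 6 places in CNV d3, replicates 3 and 6 being the highest in both.

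*Itgav* (ENSMUSG00000027087, chr2:83724397-83806916, plus strand) encodes αv, the alpha subunit that pairs with β1, β3 or β5 to bind the RGD site. It ranged from 4639 to 8476 normalized counts with a median of 7418 in control and from 4021 to 5776 with a median of 5316 in CNV d3. Control replicate 3, far under the other control samples, fell within the range of CNV d3, and the other 5 control samples lay above it. By limma the log2 fold change was -0.43 ± 0.13 (SE, n = 6 per group), with an adjusted p of 0.0450. This call too depended on single samples: the adjusted p by limma was between 0.00333 and 0.124 when 1 sample was left out, and it stayed under 0.05 only without control replicate 3. Without CNV d3 replicates 3 and 6 it was 0.176.

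*Itgb3* (ENSMUSG00000020689, chr11:104608000-104670476, plus strand), whose product β3 forms the vitronectin receptor with αv, went from a median of 2440.0 normalized counts in control (1985 to 3304) to a median of 1653 in CNV d3 (1269 to 2215). The groups overlapped through CNV d3 replicate 4 alone, which at 2215 lay above control replicates 3 and 4. The log2 fold change was -0.60 ± 0.15 (SE, n = 6 per group; adjusted p 0.0136 by limma), and without CNV d3 replicates 3 and 6 the adjusted p was 0.103 at -0.57. β3 is also a platelet subunit, and the summed platelet markers were lower in CNV d3. Of the 3 markers in this sum, *Gp9* alone was lower by limma (log2 fold change -1.61). *Pf4* stood at 0.94 with an adjusted p of 0.585 by limma, and *Itga2b* had no reads in control. The platelet markers *Ppbp* and *Gp1bb* had no row. Mean normalized counts in control were 534 for *Gp9* and 105 for *Pf4*, against 2552 for *Itgb3*. The part of platelet RNA in the value of *Itgb3* was not tested. CNV d3 replicate 4, the CNV d3 sample that was listed in 2 parts like the control samples, had the highest values of its group for *Itgb3*, *Itgav*, *Itgb5* and *Itga9* and the lowest for *Cd44*, and the part of the listing in these values was not tested.

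*Itgb5* (ENSMUSG00000022817, chr16:33829665-33949338, plus strand) encodes β5, which pairs with αv only. It was by far the most abundant of the 8 genes, at 63916 ± 4415 normalized counts in control and 68146 ± 8838 in CNV d3 (SD, n = 6). The log2 fold change was 0.08 ± 0.09 (SE), its 95% interval ran from -0.10 to 0.27 and the adjusted p by limma was 0.572, so that a change of more than 0.27 on the log2 scale lay outside the interval. The lowest value of all 12 samples, 52048, was in CNV d3 replicate 3.

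*Itgb1* (ENSMUSG00000025809, chr8:128685654-128733200, plus strand) encodes β1, the common partner of αv, α5 and α9 among the receptors here. It lay between 11859 and 15609.9 normalized counts with a median of 13243 in control and between 16907 and 19552 with a median of 18468 in CNV d3. All 6 CNV d3 samples were above all 6 control samples. This was the smallest change among the 4 genes whose groups did not overlap, with a log2 fold change of 0.46 ± 0.07 (SE, n = 6 per group) and an adjusted p of 7.45e-04 by limma, and its adjusted p stayed under 0.05 in all alternatives computed.

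*Itga5* (ENSMUSG00000000555, chr15:103344286-103366763, minus strand) encodes α5, which with β1 forms the classical fibronectin receptor. Its normalized counts were 403 in the lowest control sample, 699 at the median and 1074 in the highest, against 1116, 1555 and 2376 in CNV d3. The groups did not overlap, though the highest control and the lowest CNV d3 sample were close. This gave a log2 fold change of 1.26 ± 0.26 (SE, n = 6 per group), a 2.39-fold increase with an adjusted p of 0.00489 by limma. Within CNV d3, *Itga5* placed the 6 samples in the same order as the summed monocyte markers (replicates 3, 6, 5, 2, 4 and 1 from high to low), while in control 2 of 6 places matched. Without replicates 3 and 6 its log2 fold change was 1.01 with an adjusted p of 0.0809 by limma. The part of monocyte RNA in the change of *Itga5* was not tested further.

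*Itga9* (ENSMUSG00000039115, chr9:118606690-118901003, plus strand) encodes α9, the partner of β1 that binds cleaved osteopontin. It ranged from 1914 to 3335 normalized counts with a median of 2689 in control and from 914 to 1796 with a median of 1111 in CNV d3. Every CNV d3 sample was lower than every control sample. The difference was -1.09 ± 0.18 on the log2 scale (SE, n = 6 per group), a 2.12-fold decrease with an adjusted p of 0.00105 by limma, which was 0.0261 without CNV d3 replicates 3 and 6. Within CNV d3, *Itga9* placed the samples in the order 4, 1, 5, 2, 6 and 3, which matched that of the summed microglia markers at 4 of 6 places, replicates 1 and 4 being exchanged.

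**Figure D2:**
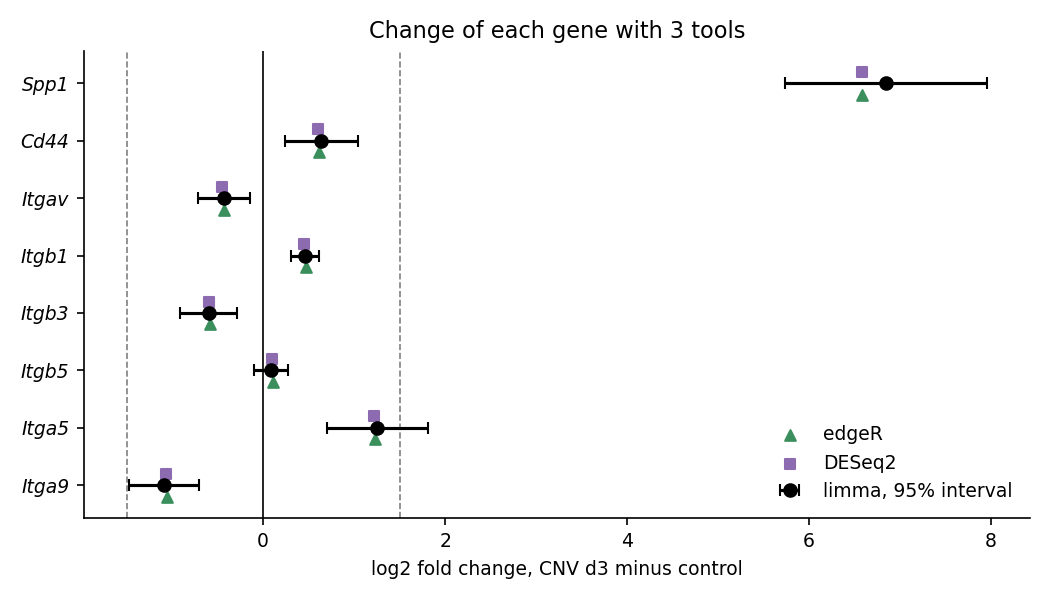
Log2 fold change of each gene, CNV d3 minus control (x axis), with the 95% interval of limma (black points and bars) and the estimates of edgeR (triangles) and DESeq2 (squares) on the recovered reads; dashed lines mark the DEG threshold of 1.5 in either direction. Spp1 lies at 6.85 by limma and 6.59 by edgeR and by DESeq2, and the receptor genes lie between -1.09 and 1.26 by limma.

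To set the ligand beside its receptors, normalized counts were divided by the exonic length of each gene in kilobases, since a longer transcript gives more reads. On this scale *Spp1* was the lowest of the 8 genes in control, at 98.1 ± 83.3 per kilobase, and the second highest in CNV d3, at 9442 ± 5341 (SD, n = 6). Among all 27238 genes with a length, its level per kilobase went from rank 6470 to rank 80. *Itgb5* stayed on top, at 17989 ± 1243 in control and 19180 ± 2488 in CNV d3, and *Itgb1* followed among the receptors at 3273 ± 315 and 4482 ± 248. The other receptor genes lay between 144 and 659 per kilobase in control and between 161 and 483 in CNV d3.

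In control, the level per kilobase of *Spp1* was below that of *Itgb5*, *Itgb1*, *Itgav*, *Itgb3* and *Itga9* in all 6 samples, and above that of *Cd44* in 1 and of *Itga5* in 2 of them. In CNV d3, it was above *Cd44*, *Itgav*, *Itgb3*, *Itga5* and *Itga9* in all 6 samples, above *Itgb1* in 5 and above *Itgb5* in 1, replicate 5. The length of *Spp1* includes the 18.8% of its exon bases shared with Gm42793, where reads are given to neither gene. Its level per kilobase may thus be understated, and close comparisons, such as those with *Itgb1* and *Cd44*, could shift. Levels without these bases were not computed. Against *Itgb5*, the highest receptor gene in each sample, the mean log2 difference of the levels per kilobase was -7.97 ± 1.37 in control and -1.19 ± 0.85 in CNV d3 (SD, n = 6). Relative to the 7 receptor genes summed, *Spp1* stood at 0.441% ± 0.398 in control and at 38.1% ± 22.4 in CNV d3. Control replicate 3, at 1.18%, carried much of the first value, which was 0.293% without it.

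**Figure D3:**
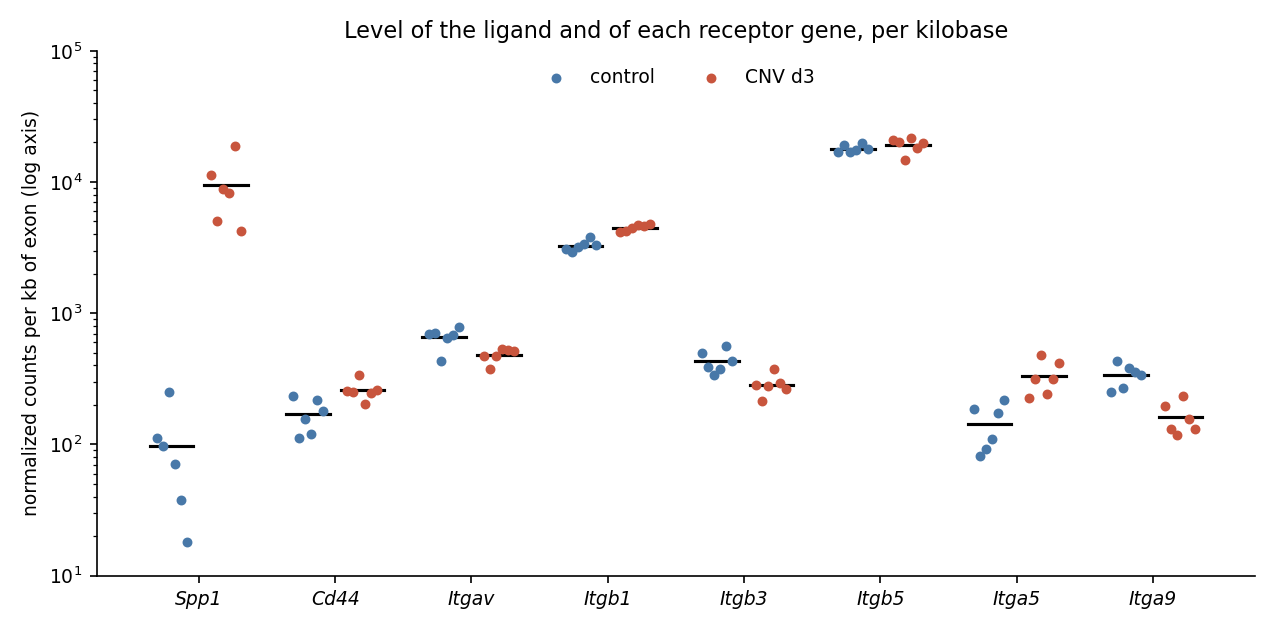
Normalized counts per kilobase of exon (y axis, log axis) of the ligand gene Spp1 and 7 receptor genes (x axis) in 6 control (blue) and 6 CNV d3 (red) samples; black lines are means. The mean of Spp1 moves from 98.1, under all receptor genes, to 9442, between Itgb1 and Itgb5.

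Neighbours in this order did not all differ beyond the spread between samples. In control, *Itgb5* and *Itgb1*, *Itgb1* and *Itgav*, and *Itga9* and *Cd44* did not overlap over the samples, while *Itgav* and *Itgb3*, *Itgb3* and *Itga9*, *Cd44* and *Itga5*, and *Itga5* and *Spp1* did. In CNV d3, *Itgb1* and *Itgav* were the one pair of neighbours without overlap, 9.33-fold apart. *Itgb5* and *Spp1*, and *Spp1* and *Itgb1*, overlapped through the spread of *Spp1*.

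An integrin forms from 1 alpha and 1 beta subunit, so the scarcer RNA of each pair was compared next, as a description of RNA levels and not of protein. The alpha subunit was the scarcer RNA in all 12 samples for *Itgav* with *Itgb1*, *Itgav* with *Itgb5*, *Itga5* with *Itgb1* and *Itga9* with *Itgb1*, and the beta subunit in all 12 for *Itgav* with *Itgb3*. The level of *Itgb5* was 27.7 times that of *Itgav* per kilobase in control and 39.7 times in CNV d3 (geometric means). For *Itgb3* and *Itgav* this ratio was 0.657 and 0.586. Both ratios use the exon union of *Itgav*, 10744 bases, whereas its longest transcript has 7054 bases. With the shorter length *Itgav* would stand higher per kilobase, and this was not computed for the ratios or for the shares below.

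Among the 3 alpha subunit genes, *Itgav* held 57.5% ± 2.5 of their summed level per kilobase in control and 49.4% ± 4.0 in CNV d3 (SD, n = 6). The share of *Itga5* was 12.5% ± 3.9 in control and 33.9% ± 8.4 in CNV d3, and that of *Itga9* 30.0% ± 5.4 and 16.7% ± 4.8. The level per kilobase of *Itga5* was below that of *Itga9* in all 6 control samples, with ratios between 0.188 and 0.752, and above it in all 6 CNV d3 samples, with ratios between 1.03 and 4.05. These shares and ratios were chosen after the values had been seen and are given as a description. Among the 3 beta subunit genes, *Itgb5* held 82.9% ± 1.2 in control and 79.9% ± 2.5 in CNV d3.

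**Figure D4:**
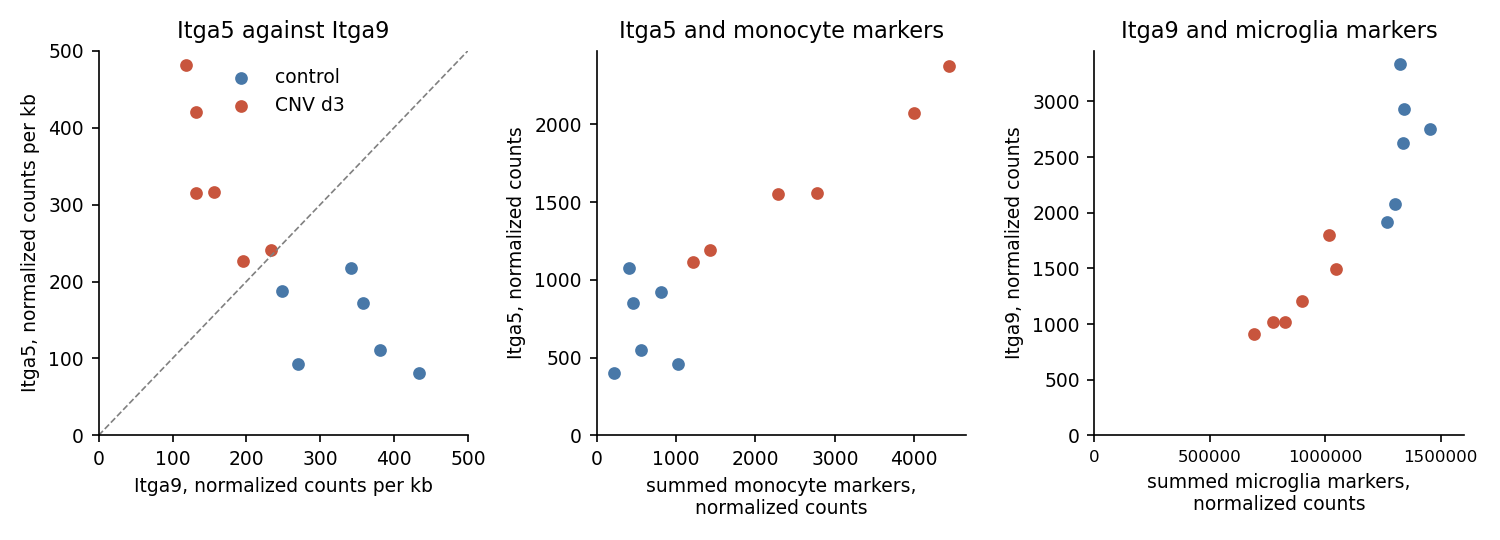
Left, normalized counts per kilobase of Itga5 (y axis) against Itga9 (x axis), with a dashed line of equal levels; middle, Itga5 against the summed monocyte markers; right, Itga9 against the summed microglia markers (all in normalized counts), each point being 1 of the 6 control (blue) or 6 CNV d3 (red) samples. All control samples lie below the dashed line and all CNV d3 samples above it, and in CNV d3 Itga5 follows the order of the monocyte markers.

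The other genes of the pathway were taken from 8 lists, chosen with earlier results of these data known, and the median log2 fold change of all 27299 genes, 0.15 by limma, is the value beside which theirs stand. The counts are to be read against the shares of all genes given above, 8.29% increased and 4.57% decreased at an adjusted p under 0.05, or 18.6% and 12.7% of genes with a mean of at least 500. Of the 20 genes named below by rule as rising or falling, 9 had CNV d3 replicates 3 and 6 as their highest samples, as the summed monocyte markers did. These were *Itgb7*, *Itgax*, *Itgal*, *Mmp9*, *Fn1*, *Ccn1*, *Cd74*, *Msn* and *Runx2*. The share of all genes with these samples highest was not counted, so 9 of 20 is a description only. The part of monocyte RNA in the values of the 9 genes was not tested further. A second median leaves out genes at or under the level of 3 reads in the shallowest control sample, 5.96 normalized counts, in both groups and sets genes without reads in control to their lower bound, and it was 0.12 for all genes. Of 6 further subunits reported to bind osteopontin (median 0.82, or 1.43 over 4 genes above that level), 2 rose and none fell at an adjusted p under 0.05 by limma. *Itgb7*, the partner of α4 in lymphocytes, had 5 reads in all control samples together and between 48.8 and 619 normalized counts in CNV d3, and was a DEG. Within CNV d3 it placed the 6 samples in the order of the summed monocyte markers. *Itgax*, which encodes the CD11c subunit, rose from 692 ± 219 to 1852 ± 520 (SD, n = 6; log2 fold change 1.45, adjusted p 0.00108 by limma). Its partner *Itgb2* stood at a log2 fold change of 0.08 with an adjusted p of 0.455 by limma, and *Itga4*, an α subunit for the stretch next to the RGD site, at 1.41 with 0.0920.

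Of 13 remaining integrin subunits with a row (median 1.03, or 0.72 over 5 genes above that level), 3 rose and none fell by limma. These were *Itgal*, the CD11a subunit of LFA-1, with a log2 fold change of 2.30 and the only DEG of the list, *Itga6* with 0.50 and *Itgam*, the CD11b subunit by which the cells were sorted, with 0.72. Of the exon bases of *Itgam*, 68.7% are shared with Gm49368, so its counts are uncertain. The other 8 of the 13 were at or under the level of 3 reads in both groups.

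Of the SIBLING family, to which osteopontin belongs, *Dmp1* and *Dspp* had a row, with 2 and 1 reads over the control samples and none in CNV d3. Neither passed by limma, and the median of the 2 was -0.22.

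Of 10 genes with a row for enzymes that cleave or modify osteopontin (median 0.65, or 1.02 over 6), 2 rose and none fell by limma, both DEG. *Acp5*, a phosphatase that removes phosphate from osteopontin, went from 5.55 ± 8.61 to 119.7 ± 58.2 normalized counts (SD, n = 6; log2 fold change 5.39, adjusted p 0.00138 by limma). *Mmp9*, a matrix protease, had no reads in any control sample and between 0 and 32.4 normalized counts in CNV d3, at least 2.47-fold higher in the mean than the level of 3 reads in the shallowest control sample, and it passed in 9 of 23 alternatives. *Tgm2*, a transglutaminase that cross-links osteopontin, and the kinase gene *Fam20c* stood at 0.74 and 0.68 with adjusted p of 0.0501 and 0.124 by limma. *F2*, the gene of thrombin, had 1 read in control and 13 in CNV d3. With CNV d3 replicates 3 and 6 left out, 1 gene of this list rose.

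Among 12 other matrix ligands of the same integrins (median 0.94, or 1.05 over 9), 4 rose and none fell by limma. *Fn1*, which encodes fibronectin, the main ligand of α5β1, had 22.1 ± 30.0 normalized counts in control and between 3763 and 47390.1 in CNV d3, with no overlap and a log2 fold change of 10.70 (9.67 by edgeR). Its highest CNV d3 sample was 12.6 times its lowest, replicates 3 and 6 being the highest and 4 and 1 the lowest, as for the summed monocyte markers. It passed in 23 of 24 alternatives, limma voom giving an adjusted p of 0.399. *Ccn1*, a matricellular protein gene, was the other DEG, with 1 read over all control samples and between 11.7 and 36.7 normalized counts in CNV d3. *Thbs1*, for thrombospondin, rose by 1.05 and *Emilin1*, a ligand of α9β1 and α4β1, by 0.83 on the log2 scale (adjusted p 0.00204 and 0.0153 by limma), the latter passing in 18 of 24 alternatives.

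Among 10 genes with a row for hyaluronan and other CD44 partners (median 0.22, or 0.29 over 9), 4 rose and 1 fell by limma. *Cd74*, the invariant chain that signals together with CD44, went from 2171 ± 922 to 13699 ± 9591 normalized counts (SD, n = 6; log2 fold change 2.37, adjusted p 0.00369 by limma). *Hmmr*, a hyaluronan receptor that is also a mitotic spindle protein, was the other DEG, with no reads at the median in control and 1623 at the median in CNV d3, though DESeq2 gave it an adjusted p of 0.0769. *Msn*, for moesin, which links CD44 to actin, rose by 0.40, and *Srgn*, a proteoglycan core protein, stood at 0.29 with an adjusted p of 0.217 by limma. The one that fell, *Hyal1*, shares 51.9% of its exon bases with other genes. Without CNV d3 replicates 3 and 6, 1 gene of this list rose and none fell.

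Among 18 genes of integrin activation and adhesion signalling (median 0.03, or 0.07 over 15), 4 rose, 2 fell and 12 did not pass by limma, and none was a DEG. Some of the 18, such as *Vcl*, *Ptk2* and *Src*, had a mean under 500. The shares among genes with a mean of at least 500 are therefore no matched comparison for the list as a whole. *Tln1*, for talin, which binds the tail of the beta subunit and activates integrins, rose from 6086 ± 816 to 12836 ± 1939 normalized counts (SD, n = 6; log2 fold change 1.07, adjusted p 3.71e-05 by limma). *Rap1b*, a small GTPase upstream of talin, rose by 0.35 and passed in 10 of 24 alternatives. *Apbb1ip*, the adaptor RIAM that joins both, was one of the 2 that fell, at a log2 fold change of -0.70, and *Lims1*, for PINCH, was the other, at -0.57. Both were outside the rule for named genes and were chosen after their values were seen. *Ilk* had reads near 0 in all samples, and 89.7% of its exon bases are shared with other genes. With CNV d3 replicates 3 and 6 left out, 2 rose and 2 fell.

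Among 10 transcription factors known to act on the *Spp1* promoter (median -0.14), 3 rose and 2 fell by limma. The 3 were DEG at low levels: *Fos* at a mean of 243 normalized counts in CNV d3, *Runx2* at 23.2 and *Vdr* at 18.0. By edgeR, *Fos* and *Runx2* had adjusted p of 0.102 and 0.167 and did not pass, and over all alternatives they passed in 16 and 10 of 24. *Vdr*, with no reads in control, passed in 19 of 23 and was at least 3.02-fold higher than 3 reads in the shallowest control sample. Of the most abundant factors, *Spi1*, which encodes PU.1, fell by 0.37 on the log2 scale (adjusted p 0.0129 by limma), and *Runx1* stood at 0.05 with an adjusted p of 0.768. The other factor that fell was *Ets1*, outside the rule for named genes, at a log2 fold change of -0.51 (adjusted p 0.00782 by limma). Without CNV d3 replicates 3 and 6, none of the 10 rose or fell at this threshold.

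**Figure D5:**
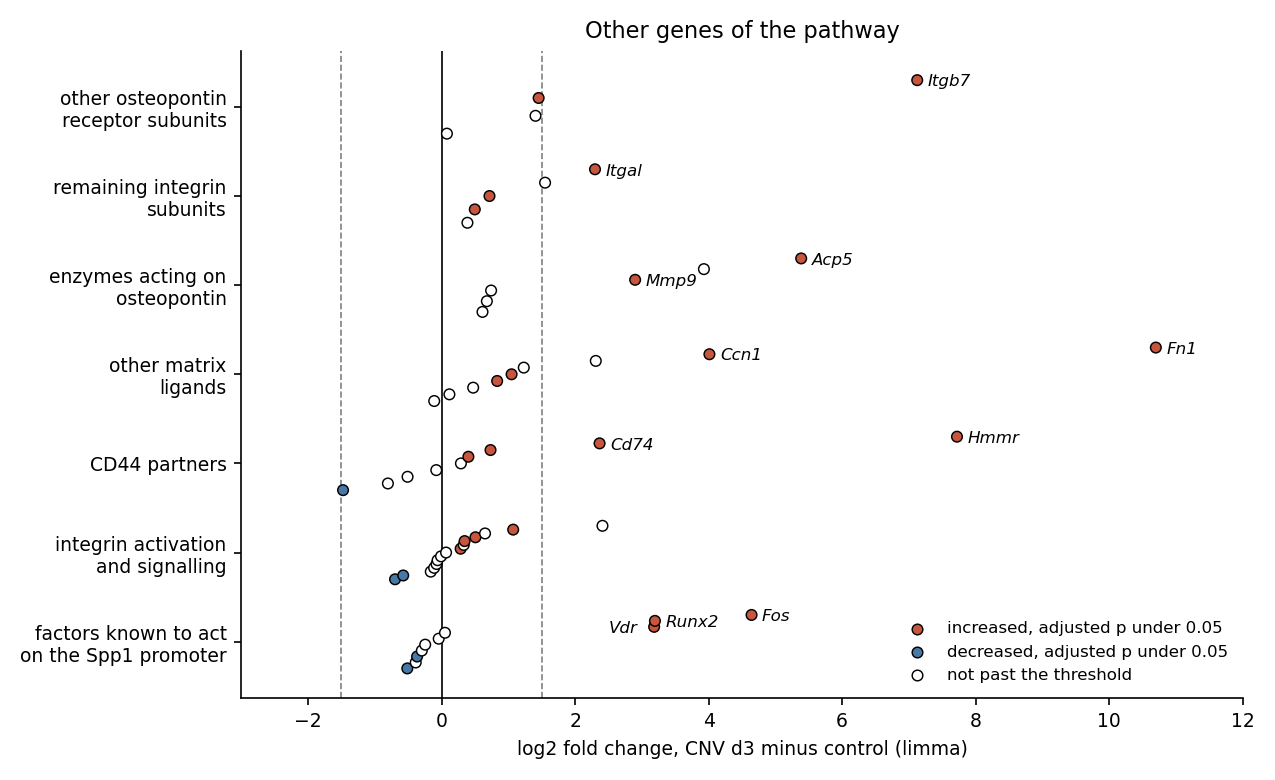
Log2 fold change by limma, CNV d3 minus control (x axis), of the genes of 7 pathway lists (rows) whose mean was above 5.96 normalized counts in a group; red and blue points passed an adjusted p of 0.05 as increased or decreased, white points did not, dashed lines mark 1.5 in either direction, and DEG are named. Fn1, at 10.70, lies farthest to the right.

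The genes whose profile over the 12 samples was most like that of *Spp1*, by the root mean square difference of log2(value + 1) centred on each gene, were *Ddias* (0.77), *Cenpw* (0.90), *Cspg4* (0.97), *E2f7* (1.02) and *Zdhhc2* (1.09), among 9684 genes with a mean of at least 100 normalized counts in CNV d3. Their means were between 155 and 224 normalized counts in CNV d3 and at most 3.45 in control, far below those of *Spp1*. Those most like *Cd44* were *Phyh* (0.17), *Traf7* (0.18) and *Prkaca* (0.20). A profile of 2 separate groups is shared by many genes, and likeness in it is a description.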

How the data were processed

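RNA of sorted retinal microglia was amplified as full-length cDNA from picogram amounts by template switching and PCR, tagmented and sequenced as 50 base single reads. The authors mapped the reads with STAR 2.7.2b to GRCm38 with Gencode M25, combined BAM files belonging to 1 sample, and used featureCounts 1.6.4 to count the reads of each gene, leaving out genes without any. The deposited signal values are these counts divided by the size factors of DESeq2 1.22.2. The deposited group means, fold changes and adjusted p-values of the authors were not used.

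The 8 genes and all lists were chosen with earlier results of these data known. Groups came from the labels. limma 3.58.1 (R 4.3.3) compared 6 CNV d3 with 6 control samples on log2(value + 1) over 27299 genes, with a mean-variance trend and Benjamini-Hochberg adjustment. Its fold changes are differences of mean logs on this scale. The pseudocount shrinks folds of low genes, while control samples at 0 can make the difference of mean logs larger than the ratio of means. Examples were *Hmmr* (7.72 by limma and 4.00 by edgeR), *Acp5* (5.39 and 4.38) and *Fos* (4.64 and 2.62). These genes had 4, 4 and 2 control samples at 0. Since 100% of the values were whole multiples of 1 read in all 12 samples (tolerance 1e-06), edgeR 4.0.16 and DESeq2 1.42.0 were run on the recovered reads as alternatives. Other alternatives were pseudocounts of 0.5 and 10, a filter (10 normalized counts in 6 samples), TMM or total-read scaling, voom, limma without a trend, thinning to 10963178 reads, a replicate block and leaving out samples. All tools were tested on simulated counts with known changes. Lengths are unions of Gencode M21 exons, and 27238 genes matched by Ensembl identifier. The named genes were the 8 members, up to 3 DEG per direction of each list with the largest change, its 2 non-DEG with the highest CNV d3 mean, and 5 genes most like *Spp1* and 3 most like *Cd44*. The main fit did not pair samples by their shared replicate numbers. Same-numbered samples correlated between -0.0526 and 0.0707 in their deviations from the group means, which cannot show whether they share a mouse or a batch. No 2 replicates agreed within sampling noise. The libraries had no molecular identifiers, so floors of 3 reads cover counting error only.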

Additional observations from a re-analysis of the deposited data

Results flagged for a closer look

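*Itgav* stood out in both groups on the log2(value + 1) scale, because 1 of 6 samples lay below the other 5. In control this was replicate 3 at 4639 normalized counts, with a gap to the next sample that was 0.671 of the whole range of the group, and in CNV d3 replicate 2 at 4021, with a gap of 0.647. Both gaps exceed the 95% critical value of Dixon's test for 6 samples on that scale, whereas on the scale of the normalized counts themselves they were 0.603 and 0.606 and did not. Chance alone marks about 1 in 20 groups, and 16 groups (8 genes in 2 conditions) were examined. Leaving out control replicate 3 gave a log2 fold change of -0.55 and leaving out CNV d3 replicate 2 gave -0.36.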

How the results depend on the processing

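The direction of each of the 8 genes was the same in all 24 alternatives. *Spp1*, *Itgb1*, *Itga9* and *Itgb5* also kept their side of the adjusted p threshold of 0.05 in all of them, with log2 fold changes of 6.46 to 7.21, 0.42 to 0.50, -1.20 to -0.92 and 0.05 to 0.17, and *Spp1* was the one DEG among the 8 genes in each. The highest adjusted p of *Spp1*, 0.0451 by limma voom, was close to the threshold. The call of *Cd44* was lost by limma without a trend (0.64) and after thinning (0.61), and with 1 sample left out its value was between 0.53 and 0.75. The call of *Itgav* was lost with a pseudocount of 10 (-0.43), TMM (-0.42), scaling by total reads (-0.41), limma without a trend (-0.43) and thinning (-0.43), and with 1 sample left out its value was between -0.55 and -0.36. Without CNV d3 replicates 3 and 6, an alternative chosen after the data were seen that has fewer samples, the calls of *Cd44* (0.54), *Itgav* (-0.45), *Itgb3* (-0.57) and *Itga5* (1.01) were lost, and 3 of the 8 genes passed instead of 7. With the replicate block the call of *Itgav* was lost (-0.43, adjusted p 0.0563 by limma), and it changed no other call of the 8 genes. The causes of the lost calls were not tested beyond these settings. The 20 list genes named as rising or falling by the rule kept their sign in all alternatives, and 9 of them passed in each. Depth limits genes near 3 reads, which are 5.96 normalized counts in the shallowest sample.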
